A study of Mus musculus with 20 samples.

Results

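RNA bound to GFP-tagged AGO2 in mouse hippocampus was sequenced after expression of a sponge for miR-125 (miR125sp) and compared with what the same precipitation yielded from sham-injected mice. The members are annotated 3′UTRs. All 3′UTRs with at least 10 counts in each of the 8 RIP libraries of the series were taken, which left 8203 of 38158, from 7639 named genes, with 41 that had no gene name. The miR125sp libraries IP1 and IP2 came from adult C57BL/6 mice injected into the hippocampus with an AAV5 vector, in which the synapsin promoter, active in neurons, drives GFP-AGO2 and the sponge as 1 transcript. The sham libraries IP7 and IP8 came from sham-injected C57BL/6 mice, which carry no GFP-AGO2 and no sponge, and went through the same GFP antibody. Each library pooled the lysate of 2 hippocampi, so that n = 2 libraries per group. A control sponge directed at miR-292 (miR292sp, 2 libraries) and a sponge directed at miR-124 (miR124sp, 2 libraries), both with GFP-AGO2, entered the estimate of the spread. Since miR125sp mice differ from sham mice by GFP-AGO2, by the vector and by the sponge, these cannot be told apart in that comparison, and the effect of the sponge alone was looked for against miR292sp.

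AGO2 is the protein of the RNA-induced silencing complex (RISC) that holds a mature miRNA and, through base pairing of the miRNA's seed with the 3′UTR, the target mRNA. RNA precipitation with AGO2 therefore lists the mRNAs that are in the RISC at the time of lysis. A sponge is a transcript with many imperfect sites for 1 miRNA family, which competes with the natural targets. The miR-125 family is abundant in brain, in neurons and also in glia, and is known for roles in neuronal differentiation and at synapses.

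The mature miRNAs are shown because the sponge is directed at them and because their seed (bases 2 to 8, in capitals) defines the matches counted in the 3′UTRs. The sequences are those of RefSeq (build GRCm38.p6).
mmu-miR-125a-5p: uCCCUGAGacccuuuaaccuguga
mmu-miR-125b-5p: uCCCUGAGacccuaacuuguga
mmu-let-7a-5p: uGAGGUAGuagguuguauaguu
mmu-miR-21a-5p: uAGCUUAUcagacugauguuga
miR-125a and miR-125b share the seed, and the match to it in a 3′UTR reads CTCAGGG. let-7, another miRNA family of neurons, and miR-21, enriched in glia, are shown because their matches were counted in the same way.

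Among the 3′UTRs that were higher with miR125sp than in sham, 545 of the 2423 with a sequence held a match to the miR-125 seed (22.5%). Of all 3′UTRs with a sequence, 16.1% did. The following matches were picked from those of the higher 3′UTRs. They are shown with 10 bases on either side, the match in capitals, 5′ to 3′ on the strand of the gene, in NCBIM37 (mm9) coordinates. Zbtb34 and Hic2, which encode zinc finger transcription factors, were among the 12 highest. Hif1an, which encodes the asparagine hydroxylase that inhibits HIF-1α, held 4 matches. Mcl1 (a protein that protects from apoptosis), Map3k11 (a kinase upstream of JNK) and E2f3 (a cell cycle transcription factor) are literature targets of miR-125. Foxo3, Btg2 and Bsn are members of the gene lists described further on.
Zbtb34 (chr2:33264181-33264207, minus strand): agacatcgagCTCAGGGaaggagcctc
Hic2 site 1 (chr16:17260582-17260608, plus strand): atgtctgctgCTCAGGGcatgctgtgt
Hic2 site 2 (chr16:17262656-17262682, plus strand): gagggcaggcCTCAGGGagcaagcgct
Hif1an site 1 (chr19:44645941-44645967, plus strand): gtctgttaacCTCAGGGtgtgtgtgtg
Hif1an site 2 (chr19:44646816-44646842, plus strand): tttcatccacCTCAGGGcaaggggaaa
Hif1an site 3 (chr19:44649532-44649558, plus strand): atggggatagCTCAGGGttgtagaggc
Hif1an site 4 (chr19:44650661-44650687, plus strand): aaatatctacCTCAGGGttgctggatg
Mcl1 (chr3:95466894-95466920, plus strand): ttacacgtctCTCAGGGaaaaaacatg
Map3k11 (chr19:5702599-5702625, plus strand): cagagcctgtCTCAGGGaattgccccc
E2f3 (chr13:30000591-30000617, minus strand): taatgccacaCTCAGGGagaccacttc
Foxo3 (chr10:41903996-41904022, minus strand): ggtggaatgtCTCAGGGtggcagctga
Btg2 (chr1:135973480-135973506, minus strand): ccctctcttaCTCAGGGgcattcaagc
Bsn site 1 (chr9:107999762-107999788, minus strand): ccatgcatttCTCAGGGgttcacgttt
Bsn site 2 (chr9:107999081-107999107, minus strand): ggtgaacagtCTCAGGGcccacactga
Of these sites, those of Mcl1, Map3k11, Foxo3 and Bsn had a T before the match, which extends the pairing to base 9 of the miRNA. Those of Zbtb34, Mcl1, Map3k11, E2f3 and the second of Hic2 were followed by an A, opposite base 1.

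The deposited counts summed to 3354678 and 3548420 with miR125sp and to 2931054 and 2417942 in sham. Libraries were scaled to reference genes, Gapdh and the 50 genes on either side of it in a list ordered by the ratio of miR292sp to sham. These took 1.21% and 1.29% of the counts with miR125sp and 2.01% and 1.92% in sham. log2 counts correlated across 3′UTRs at r = 0.952 between the miR125sp libraries, 0.913 between the sham libraries and 0.859 to 0.870 between the groups, and these points share library and depth. The median absolute log2 ratio between replicates was 0.32 with miR125sp and 0.43 in sham. Replicates differed by more than counting error (chi-square per degree of freedom 10.2 with miR125sp and 13.6 in sham), and no library was a copy of another. The labels name separate libraries, and the p-values measure the spread between them.

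With miR125sp, 2466 of the 8203 3′UTRs (30.1%) were higher than in sham and 26 (0.317%) were lower (edgeR quasi-likelihood test, Benjamini-Hochberg adjusted p below 0.05, scaling to the Gapdh-centred genes). The highest values included those of Scrt2, Frat2, Ddit4 and Itgb1, at log2 fold changes of 4.57, 4.49, 4.42 and 4.28. Of the 2466, 2464 had both miR125sp values above both sham values, a pattern shown by 4560 (55.6%) of all 3′UTRs tested, and all 26 lower ones had both values below, as did 523 (6.38%) of all. The median log2 fold change over all 3′UTRs was 0.55. When the libraries were scaled by TMM, which places the middle of all 3′UTRs at 0, the median was −0.03, 1037 (12.6%) were higher and 314 (3.83%) were lower. The 1037 were all among the 2466, and the 26 were all among the 314. The scalings differed by 0.58 in the median, and changes are therefore set beside the median of 0.55.

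**Figure D1:**
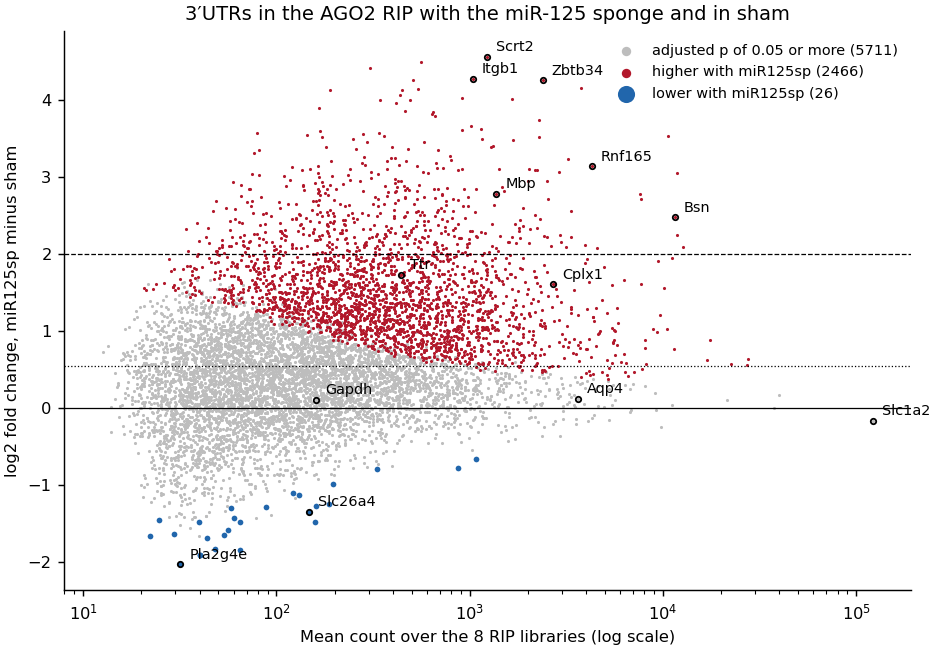
log2 fold change between miR125sp and sham (Gapdh-centred scaling, vertical axis) against the mean count over the 8 RIP libraries (log scale, horizontal axis), 1 point per 3′UTR, with the 2466 higher ones in red and the 26 lower ones in blue. The dashed line is the 4-fold limit, the dotted line the median of 0.55, and the named genes span from Scrt2 at 4.57 to Pla2g4e at −2.03, with Slc1a2 at the highest count and −0.16.

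The relative enrichment in AGO2 binding, the mean of the normalised miR125sp counts divided by that of sham, ranged from 0.243 to 23.6 with a median of 1.47 and quartiles of 1.07 and 2.16. It lay below 1 for 1643 3′UTRs, between 1 and 2 for 4161, between 2 and 4 for 1892, between 4 and 8 for 418 and above 8 for 89. Above the 4-fold limit that the study uses for a miRNA target were 507 3′UTRs of 502 genes (6.18%), and all 507 also passed the test. Both libraries on their own exceeded 4-fold for 390 3′UTRs and 1 of the 2 for a further 306. With the same sham libraries as denominator, the median enrichment was 2.39 with miR292sp, where 2230 3′UTRs exceeded 4-fold, and 1.29 with miR124sp, where 230 did. These 3 comparisons share the sham libraries. With TMM in place of the Gapdh-centred genes, 191 3′UTRs exceeded 4-fold with miR125sp, and without sham IP8, 786 did.

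Scrt2, which encodes a zinc finger repressor of the Snail family found in neurons, had the highest value. Its 3′UTR (chr2:151919601-151921538) had 1717 and 1481 counts with miR125sp and 74 and 89 in sham. It was enriched 23.6-fold, with a log2 fold change of 4.57 ± 0.28 (SE, adjusted p = 2.97e-09), and its values did not overlap with sham. Frat2, which encodes a binding partner of GSK3 in Wnt signalling, had 641 and 623 counts against 25 and 42 (4.49 ± 0.32, adjusted p = 1.43e-08). Ddit4, an inhibitor of mTOR that is induced by stress, had 259 and 405 counts against 17 and 20 (4.42 ± 0.37, adjusted p = 1.00e-07). Irs1, the adaptor of the insulin receptor, had 745 and 469 counts against 33 and 44 (4.26 ± 0.40, adjusted p = 3.15e-07). The latter 2 belong to the same signalling pathway and stood apart from sham by more than the spread between libraries.

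Itgb1, the β1 chain of integrin receptors, and Zbtb34 were also among the 12. Itgb1 had 1289 and 1103 counts with miR125sp and 90 and 62 in sham (4.28 ± 0.24), and Zbtb34 had normalised counts 19.2-fold above sham (4.26 ± 0.22). Slc44a5, of the choline transporter-like family, had 4846 and 3346 against 339 and 232 (4.16 ± 0.24), the highest count of the 12. Kcnj2, an inward rectifier potassium channel, was the least even, with 315 and 814 counts against 49 and 28 (4.14 ± 0.41). Hic2, Sec24d (a coat protein of vesicles that leave the endoplasmic reticulum), Slc25a1 (the mitochondrial citrate carrier) and Kdm6b (a demethylase of histone H3 lysine 27) followed at 4.13, 4.13, 4.07 and 4.03. All 12 remained past the threshold under each scaling, tool and left-out library. Of the 12, Hic2 held 2 and Zbtb34 held 1 match to the miR-125 seed, and the other 10 held none.

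The 26 lower 3′UTRs were less deeply covered, with a median of 62.4 counts over the 8 libraries against 377 for the higher ones. Pla2g4e, a phospholipase A2, was lowest, with 12 and 13 counts against 81 and 47 in sham (−2.03 ± 0.56, adjusted p = 0.00982). The deepest of them was Mgea5, which encodes the enzyme that removes O-GlcNAc from proteins, with a log2 fold change of −0.66 ± 0.21 (adjusted p = 0.0237, named for its depth after its value was seen). Of the 12 lowest, Arntl2, a partner of the clock protein CLOCK, had 31 and 18 counts against 170 and 58, and Ppip5k1, an inositol phosphate kinase, had 56 and 95 against 341 and 182. Each of the 12 lost its call under 2 to 7 of the 11 alternatives tried, so that these calls are less firm than those of the 12 highest. The plot of fold change against count shows them at the left, where counts are few.

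**Figure D2:**
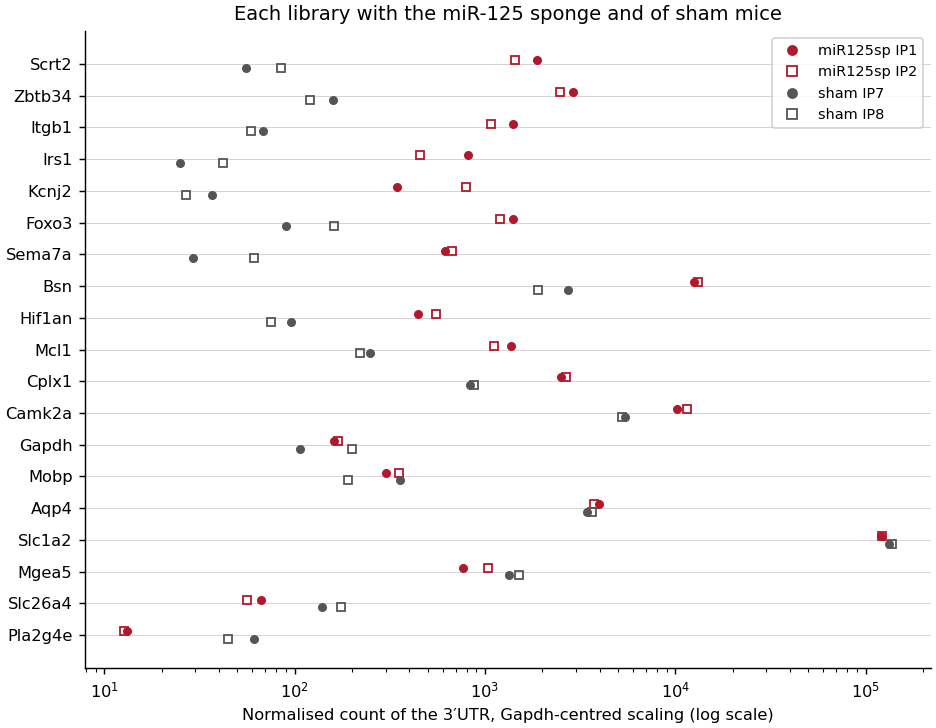
Normalised count (Gapdh-centred scaling, log scale) of 19 3′UTRs in each miR125sp library (red) and each sham library (grey). From Scrt2 to Camk2a the 2 red symbols lie to the right of both grey ones, for Gapdh and Mobp the groups overlap, and for Mgea5, Slc26a4 and Pla2g4e the red symbols lie to the left.

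Of the genes that serve as reference points, Cplx1 was higher and Gapdh was level. Cplx1, which encodes the presynaptic protein complexin 1, had 2298 and 2758 against 1101 and 915, an enrichment of 3.05-fold (1.61 ± 0.17, adjusted p = 1.33e-06). It was separated from sham and lay below the 4-fold limit. Gapdh, the gene around which the scaling is built, had 148 and 174 counts against 142 and 210 (0.11 ± 0.41, adjusted p = 0.879). AGO2 itself is listed as Eif2c2, and its 3′UTR had 2235 and 2157 counts against 2049 and 1090 (0.81 ± 0.22, adjusted p = 0.00998). That call was lost with TMM (0.21, adjusted p = 0.621), without miR125sp IP1 (0.70) and without sham IP8 (0.55).

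The labels name the cell type as hippocampal neurons, while the lysate was of whole hippocampus. Of the neuron markers, 13 of the 23 measured were higher with miR125sp and none was lower (56.5%, against 30.1% of all 3′UTRs, with a median of 0.71 against 0.55). With TMM 5 were higher and none lower, where 12.6% of all 3′UTRs were higher and 3.83% lower. These shares of all 3′UTRs apply to every TMM count of a list against sham below. The summed normalised count of these markers was 62320 and 60590 with miR125sp against 36910 and 36470 in sham. Among them were Syn2 and Snap25, proteins of synaptic vesicles and of their fusion (the call of Snap25 was lost with TMM, 0.30, adjusted p = 0.184), and Camk2a, the calcium-dependent kinase of excitatory neurons. Camk2a had 9393 and 11827 counts against 7261 and 5478 (1.02 ± 0.11, adjusted p = 1.60e-06). Slc17a7, the vesicular glutamate transporter, was close to sham, with 6834 and 7725 counts against 8445 and 5102 (0.41 ± 0.14, adjusted p = 0.028), and was at −0.18 with TMM. In RNA precipitated from a whole lysate, binding to GFP-AGO2, the number of cells of a type and the RNA per cell cannot be told apart. The share called also rose with abundance. In 5 groups by mRNA level in GFP mice, 23.6% of the lowest and 40.1% of the highest were higher than sham. Each list takes the most deeply covered 3′UTR of a gene, and the part of depth in the shares of this and the other lists was not tested.

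Glial transcripts were present at high counts in both groups. Of 16 astrocyte markers, none passed the test in either direction (median 0.23), and with TMM 2 were lower and none higher. Their summed normalised count was 132900 and 133900 with miR125sp against 143800 and 149500 in sham. As a share of all counts they took 3.63% and 3.89% with miR125sp, 6.52% and 6.49% in sham and 1.60% and 1.69% with miR292sp. In each of these libraries Slc1a2 alone made up most of the sum and of the share, which therefore follow that gene. Slc1a2, the main glutamate transporter of astrocytes, had 109690 and 125004 counts against 175666 and 144443 in sham (−0.16 ± 0.06, adjusted p = 0.05002, just outside the threshold), and −0.75 with TMM (adjusted p = 2.31e-05). Gfap, the astrocyte filament, had 161 and 193 counts against 172 and 85 (0.78 ± 0.38, adjusted p = 0.138), and Aqp4, the astrocyte water channel, had 3642 and 3869 against 4576 and 3834 (0.12 ± 0.15). The part of these glial transcripts in the scaling was not tested, and 2 astrocyte and 5 oligodendrocyte markers are among the reference genes.

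Of 17 oligodendrocyte and myelin markers, only Mbp was higher (median of the list 0.25), and with TMM 1 was higher and none lower. Mbp, which encodes myelin basic protein, had 1438 and 1327 counts against 277 and 215 (2.79 ± 0.20, adjusted p = 1.63e-08), while Mog and Mobp, which encode other myelin proteins, were at 0.46 and 0.25 and did not pass. Mobp held 4 matches to the miR-125 seed. No microglia marker passed among the 7 measured of 21 listed, and 1 endothelial marker of 6 did, Slc2a1, the glucose transporter of the blood-brain barrier (1.18 ± 0.35, adjusted p = 0.0157, lost under 4 of 11 alternatives). With TMM 1 microglia marker and 2 endothelial markers were lower, and none of either list was higher. Of 15 interneuron markers, 3 were higher (20%, against 30.1% of all 3′UTRs), among them Gad1, the GABA-synthesising enzyme (1.00 ± 0.26, lost under 3 alternatives). Of 18 markers of hippocampal subfields, 8 were higher (44.4%), among them Grik4, a kainate receptor subunit of CA3 (1.98 ± 0.45), and Neurod2 (1.29 ± 0.15). With TMM 2 subfield markers were higher and 2 lower, and 1 interneuron marker was higher, against 12.6% of all 3′UTRs higher and 3.83% lower. With TMM, too, the medians of the astrocyte, oligodendrocyte, microglia and interneuron lists were below 0, and those of the neuron and subfield lists were 0.13 and 0.10.

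**Figure D3:**
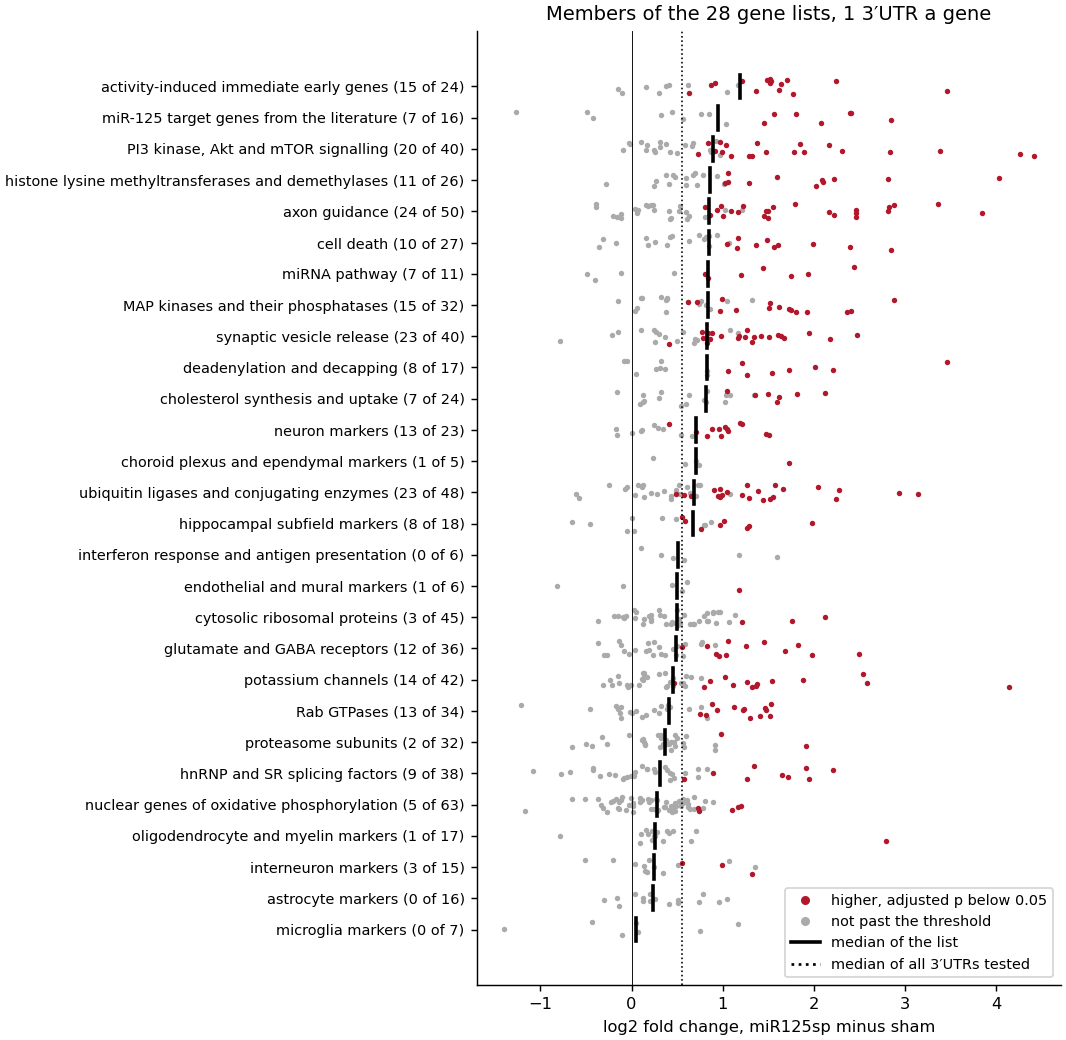
log2 fold change between miR125sp and sham (Gapdh-centred scaling) for each measured member of 28 gene lists, with higher members in red, other members in grey and the median of the list as a black bar. Numbers beside the names give the higher members of those measured, from 15 of 24 immediate early genes at the top to none of 7 microglia markers at the bottom, and the dotted line is the median of all 3′UTRs.

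The axon guidance genes, whose products steer growing axons and remain active at synapses, had a median of 0.85, and 24 of 50 were higher, none lower, against 30.1% of all 3′UTRs. With TMM the median was 0.26, and 13 were higher and 2 lower. Among the ligands, Sema7a, a membrane-anchored semaphorin, had 562 and 690 counts against 39 and 64 (3.85 ± 0.30, adjusted p = 4.30e-08). Efna3 and Efna2, ephrin ligands of Eph receptors, were at 3.36 ± 0.24 and 2.88 ± 0.29, and Sema4f was at 2.82 ± 0.35, with 1477 and 1412 counts against an uneven 129 and 344. The 4 ligands lay clear of both sham libraries.

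In PI3 kinase, Akt and mTOR signalling, which couples growth factors to protein synthesis, 20 of 40 genes were higher and none lower (50%, against 30.1% of all 3′UTRs, median 0.89). With TMM 10 were higher and none lower (median 0.31). Besides Ddit4 and Irs1, Foxo3, the transcription factor that Akt holds in the cytoplasm, had 1285 and 1240 counts against 120 and 168 (3.39 ± 0.25, adjusted p = 1.88e-08). Of the MAP kinases and their phosphatases, 15 of 32 were higher (46.9%, against 30.1% of all 3′UTRs). With TMM 5 were higher and 1 lower, near the 12.6% and 3.83% of all 3′UTRs. Dusp22, a phosphatase that acts on the JNK pathway, was at 2.88 ± 0.29. Map2k3, the kinase above p38, was at 2.36 ± 0.35 and Mapk8, which encodes JNK1, at 1.93 ± 0.25.

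Of the immediate early genes, which neurons induce within minutes of activity, 15 of 24 were higher (62.5%, against 30.1% of all 3′UTRs). The list had the highest median, 1.19 (0.63 with TMM, where 5 of the 24 were higher). Btg2, an antiproliferative protein that recruits the deadenylase, had 522 and 511 counts against 59 and 55 (3.46 ± 0.26, adjusted p = 2.56e-08). Ptgs2, which encodes cyclooxygenase 2, had 168 and 173 against 29 and 56 (2.24 ± 0.41), and Trib1, a pseudokinase, had 558 and 545 against 223 and 190 (1.70 ± 0.24). Fos, with 73 and 70 counts against 17 and 57, did not pass (1.16 ± 0.52, adjusted p = 0.103).

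Transcripts that encode proteins of the silencing pathway were also among those higher than in sham. Of 11 genes of the miRNA pathway, 7 were higher and none lower (63.6%, against 30.1% of all 3′UTRs, median 0.84). With TMM 4 were higher and 2 lower. Ago1, listed as Eif2c1, had 1761 and 1886 counts against 377 and 430 (2.44 ± 0.21, adjusted p = 1.17e-07). Tnrc6b, the GW182 protein that links AGO to deadenylases, had 3795 and 3785 against 1286 and 1123 (1.94 ± 0.16), the helicase gene Mov10 was at 1.75 ± 0.38, and Dicer1, which makes the mature miRNA, had 814 and 913 against 397 and 373 (1.44 ± 0.21). Of 17 deadenylation and decapping genes, 8 were higher (47.1%, and 5 genes with TMM), led by Btg2, the decapping enzyme gene Dcp2 (2.21 ± 0.31) and Tob2 (2.01 ± 0.22). The 2 miRNA pathway genes that were lower with TMM were Ddx5 and Ddx17, which encode cofactors of Drosha (named after their values were seen).

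Of 27 cell death genes, 10 were higher and none lower (37.0%, against 30.1% of all 3′UTRs, median 0.85), and with TMM 5 were higher and 1 lower. Bbc3, which encodes the apoptosis activator PUMA, and Mcl1, which opposes it, were both up, at 2.85 ± 0.47 and 2.39 ± 0.19. Dffa, an inhibitor of the apoptotic nuclease, and Casp9, the initiator caspase of the mitochondrial pathway, were at 1.99 ± 0.30 and 1.61 ± 0.30. In protein catabolism, 23 of 48 ubiquitin ligases and conjugating enzymes were higher (47.9%, against 30.1% of all 3′UTRs). They were led by Rnf165 (4907 and 4077 counts against 788 and 481, 3.14 ± 0.20) and Siah2 (2.93 ± 0.44). With TMM 8 were higher and 1 lower, against 12.6% and 3.83% of all 3′UTRs. Of 32 proteasome subunits, 2 were higher (6.25%, and 1 with TMM), Psma3 (1.91 ± 0.33) and Psmd7 (0.98 ± 0.32, a call lost under 6 alternatives). The median 3′UTR was 1914 bases long among the former and 268.5 among the latter, and the part of length in this was not tested.

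Synaptic vesicle genes were higher in 23 of 40 cases (57.5%, against 30.1% of all 3′UTRs, median 0.83). With TMM 8 were higher and 1 lower (median 0.26). Bsn, which encodes the active zone scaffold Bassoon, had 11499 and 13562 counts against 3605 and 1996 (2.48 ± 0.14, adjusted p = 1.93e-09). Stx1a, the syntaxin of vesicle fusion, was at 1.67 ± 0.33, and the low-count Cplx3, with 54 and 65 counts against 19 and 13, was at 2.18 ± 0.61 (lost under 2 alternatives). Of 36 glutamate and GABA receptor genes, 12 were higher (33.3%, near the 30.1% of all 3′UTRs, median 0.49), led by Grm2, a presynaptic metabotropic receptor (enriched 5.68-fold, SE 0.39 on the log2 scale), and Grik3 (1.69 ± 0.25). Of 42 potassium channel genes, 14 were higher (33.3%, median 0.45), among them Kcnk3, a leak channel (2.58 ± 0.27), Kcnc4, a fast delayed rectifier (2.54 ± 0.23), and Kcnip2, a subunit of A-type channels with 3725 and 4313 counts against 1343 and 1293 (1.88 ± 0.14). With TMM 5 receptor genes were higher and 3 lower and 7 channel genes were higher and 1 lower, and both medians were below 0 (−0.10 and −0.13). Over all 3′UTRs 12.6% were higher and 3.83% lower with TMM.

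Of 26 histone lysine methyltransferases and demethylases, 11 were higher (42.3%, median 0.86), and 7 with TMM. After Kdm6b came Jarid2, a partner of the Polycomb complex (2.82 ± 0.34), Kdm5b, a demethylase of histone H3 lysine 4 (2.22 ± 0.21), and Prdm2 (2.10 ± 0.35). Housekeeping lists had few calls. Of 45 cytosolic ribosomal protein genes, 3 were higher (6.67%, median 0.50), with Rpl22 highest (enriched 4.37-fold), and of 63 nuclear genes of oxidative phosphorylation, 5 were (7.94%, median 0.28), with Uqcrfs1 highest (1.20 ± 0.40, lost under 6 alternatives). With TMM 1 ribosomal protein gene was higher and none lower, and of the oxidative phosphorylation genes none was higher and 1 was lower. Their median 3′UTR lengths were 181 and 160 bases. Of 34 Rab GTPases, 13 were higher (Rab2a 1.53 ± 0.16), of 38 hnRNP and SR splicing factors, 9 (Sf3a1 2.21 ± 0.32), and of 24 genes of cholesterol synthesis and uptake, 7. These are 38.2%, 23.7% and 29.2% of their lists, against 30.1% of all 3′UTRs. With TMM the Rab GTPases had 3 higher and 3 lower, the splicing factors 6 and 3, and the cholesterol genes 2 and 1. None of the 6 measured genes of the interferon response passed with either scaling.

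The sponge is directed at miR-125, and 16 of 36 target genes of miR-125 named in the literature were measured. Of these, 7 were higher than in sham and none lower (43.8%, against 30.1% of all 3′UTRs, median 0.95), and 4 exceeded 4-fold. With TMM 5 were higher and 1 lower. The targets in the MAP kinase and cell death pathways led. Bbc3 had 125 and 159 counts with miR125sp against 13 and 33, Map3k11 had 191 and 177 against 21 and 60 (2.40 ± 0.46), and Mcl1 had 1251 and 1144 against 332 and 232. E2f3 had 737 and 777 against 253 and 187 (2.08 ± 0.21). The other 3 were Map3k10, a second kinase of the JNK pathway (1.81 ± 0.52, lost in 4 alternatives), Bcl2l2, which encodes the survival protein BCL-W (1.56 ± 0.36, lost under 2), and Dlg4, which encodes the postsynaptic scaffold PSD-95 (1.45 ± 0.24). Bbc3 and Bcl2l2 held no match to the miR-125 seed.

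The 9 other literature targets did not pass the test, although Trp53inp1, Bcl2, Ppp1ca, Abtb1, Mapk14 and Erbb3 among them held a match to the miR-125 seed. Trp53inp1 was at 1.04 ± 0.41 (adjusted p = 0.0643), Bcl2 at 0.85 ± 0.41, Grin2a, with a row of 117 bases, at 0.76 ± 0.50, Ppp1ca at 0.56 ± 0.43, Abtb1 at 0.45 ± 0.57 and Mapk14 at 0.33 ± 0.23. Below 0 lay Smad4 (−0.43 ± 0.42), Prkra (−0.49 ± 0.54) and Erbb3, a receptor of neuregulin, with 16 and 46 counts against 58 and 113 (−1.27 ± 0.59, adjusted p = 0.117, and lower with TMM at adjusted p = 0.0382). Against miR292sp no member of this list passed the test in either direction with TMM (median of the list −0.34 against 0.03 over all 3′UTRs). Bbc3, Mcl1, Map3k11 and E2f3 were at −0.81, −0.70, −0.54 and −0.46 in that comparison, with adjusted p of 0.332, 0.0893, 0.508 and 0.273. With the Gapdh-centred scaling 8 of the 16 were lower and none higher (median −1.12), against 38.2% of all 3′UTRs lower and a median of −0.75. On that scale these 4 were at −1.58, −1.48, −1.32 and −1.24 and passed the test, so the call rests on the scaling.

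Seed matches were counted in the 7868 3′UTRs with a sequence of fitting length. The share higher than sham was 28.5% of the 6601 without a match to the miR-125 seed, 41.4% of the 1056 with 1 match and 51.2% of the 211 with 2 or more, and the median log2 fold change was 0.53, 0.72 and 0.88. 3′UTRs with matches were also longer, with a median of 1215, 2162 and 3205 bases. Length on its own went with the value, since, in 5 groups of nearly equal size, 10.8% of the shortest and 43.7% of the longest were higher (median 0.31 and 0.67). In 3 groups of equal size by length, the medians without and with a match were 0.40 and 0.54 for the shortest, 0.60 and 0.77 for the middle and 0.64 and 0.77 for the longest. With a longer match, to bases 2 to 9, the medians were 0.55, 0.78 and 0.91.

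Other families gave values of the same kind. With 1 or more let-7 matches (letters CTACCTC, on the strand of the gene, as for all matches) 449 of 898 3′UTRs were higher (median 0.89), and with 1 or more miR-21 matches (ATAAGCT) 221 of 663 were (median 0.56), near the 0.57 of those without. The let-7 and miR-125 matches can share the letters CTC, and 11 of the 1524 miR-125 matches overlapped a let-7 match, among them Hif1an site 4 above. The 1050 3′UTRs with a miR-125 and no let-7 match had a median of 0.70, and the 5920 with neither had 0.49. Against the same sham libraries, the medians with miR292sp were 1.22, 1.59 and 1.81 for 0, 1 and 2 or more miR-125 matches, and 1.85 for 1 or more let-7 matches. Between miR125sp and miR292sp (TMM scaling), the medians were 0.04, −0.09 and −0.13 for 0, 1 and 2 or more miR-125 matches, and −0.15 for 1 or more let-7 and 0.02 for 1 or more miR-21 matches. These are descriptions across 3′UTRs, which are not replicates. Across 3′UTRs the log2 fold change correlated with length at Spearman's rho = 0.182, with GC content at 0.128 and with the mRNA level in GFP mice at 0.064 (n = 8203, 7868 and 6962 3′UTRs that share the libraries).

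**Figure D4:**
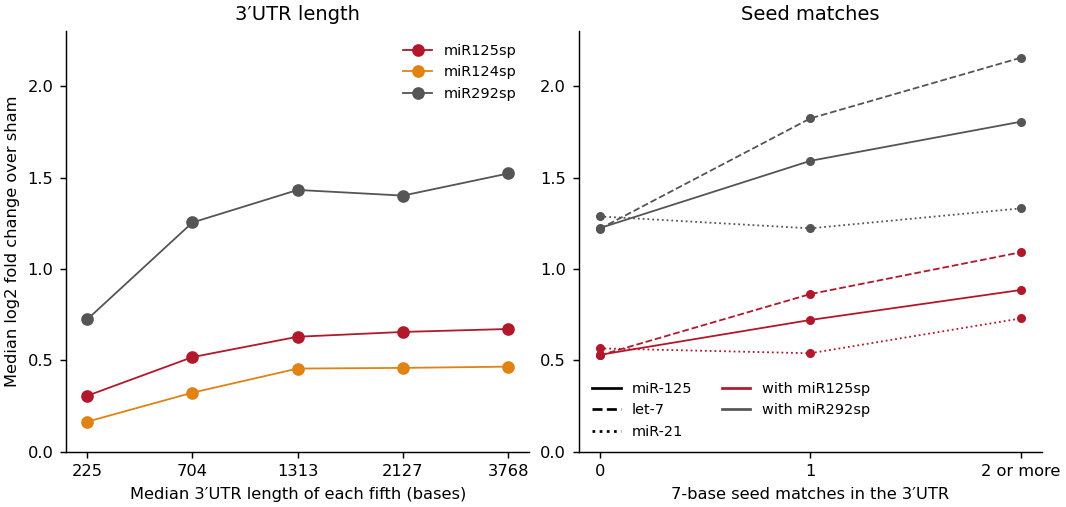
Median log2 fold change over sham (Gapdh-centred scaling) in 5 groups of 3′UTR length for the 3 sponges (left) and by the number of seed matches for miR-125, let-7 and miR-21 with miR125sp and miR292sp (right). With miR125sp the median goes from 0.31 to 0.67 from the shortest to the longest group and from 0.53 to 0.88 over the miR-125 matches, and all points share the sham libraries.

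The most matches to the miR-125 seed in 1 3′UTR were 4, found in 9 3′UTRs, of which Mobp is given above and the 6 with the highest fold change follow. Hif1an had 409 and 569 counts against 127 and 79 (2.54 ± 0.26, adjusted p = 6.97e-07, enrichment 5.84-fold), clear of sham. AI646023, Zbtb7a (a transcription repressor), Tmem136 and Ddx19b (an RNA helicase gene) were at 1.60 ± 0.50, 1.41 ± 0.19, 1.28 ± 0.21 and an enrichment of 2.19-fold and passed the test, with the calls of AI646023 and Ddx19b lost under 4 and 3 alternatives. Mesdc2, a chaperone of LDL receptors, had 198 and 315 counts against 132 and 259 and did not pass (0.60 ± 0.38, adjusted p = 0.263). With TMM none of the 6 differed between miR125sp and miR292sp at an adjusted p below 0.05, with Hif1an at −0.63 ± 0.24 (adjusted p = 0.199) and Zbtb7a at −0.60 ± 0.20 (adjusted p = 0.146). With the Gapdh-centred scaling all but AI646023 were lower than with miR292sp, Hif1an at −1.42 (adjusted p = 3.38e-04) and Zbtb7a at −1.38 (adjusted p = 8.61e-05), where the median of all 3′UTRs was −0.75.

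The miR-125 sponge was compared with the control sponge directly, since both carry GFP-AGO2 and the sham libraries drop out. With TMM scaling, 97 3′UTRs were higher (1.18%) and 19 lower (0.232%) with miR125sp than with miR292sp (edgeR, adjusted p below 0.05). The lower ones included 4 of 24 immediate early genes, and the higher ones included 4 of 16 astrocyte markers and the choroid plexus gene Ttr. With the Gapdh-centred scaling 18 were higher and 3132 lower (median over all 3′UTRs −0.75, against 0.03 with TMM), so the count of lower 3′UTRs rests on the scaling. The calls also rested on the number of libraries: without miR125sp IP1, without miR125sp IP2, without miR292sp IP5 and without miR292sp IP6 there were 20, 12, 5 and 10 higher and 1, 0, 1 and 0 lower. Where the TMM call was 0, 271 and 295 3′UTRs were lower at an unadjusted p below 0.05, and DESeq2 on all libraries gave 218 higher and 157 lower.

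Among the lower ones, Fos had 73 and 70 counts with miR125sp, against 569 and 371 with the control sponge and the 17 and 57 of sham, a log2 fold change against miR292sp of −2.18 ± 0.50 (adjusted p = 0.036). Nr4a1, another immediate early gene that encodes a nuclear receptor, had 537 and 545, 1473 and 1986, and 290 and 223 (−1.14 ± 0.22, adjusted p = 0.0162). For both, the miR125sp values lay below both miR292sp values. Arc and Homer1, named after their values were seen, were also below the control sponge, so that 4 of 24 members of that list passed in this direction and none in the other. Also lower were Wwc1, which encodes the synaptic protein KIBRA (−1.01 ± 0.19), and Pik3cb, a catalytic PI3 kinase subunit (−1.07 ± 0.25). The remaining named ones were B3gnt1 (−1.47 ± 0.33), Pdhx, a subunit of pyruvate dehydrogenase (−1.38 ± 0.31), and Mrpl53, of the mitochondrial ribosome (−1.01 ± 0.24). Slc26a4, an anion exchanger, was low against both, with 61 and 58 counts, against 227 and 273 with the control sponge and the 185 and 183 of sham (−1.53 ± 0.37 against miR292sp and −1.35 ± 0.39 against sham). With miR124sp, Fos had 78 and 35 counts, Nr4a1 386 and 352, Arc 884 and 967 and Wwc1 1021 and 925. These 4 were thus below both miR292sp values there too, and none differed between miR125sp and miR124sp with TMM. Their low values were not particular to miR125sp.

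Of the 19 lower 3′UTRs, 1 held a match to the miR-125 seed (5.26%), against 1267 of all 7868 with a sequence (16.1%). Of the 93 higher ones with a sequence, 24 did (25.8%). The 19 were shorter and the 93 longer, with medians of 819 and 2649 bases against 1358 for all with a sequence. The part of length in these shares was not tested. For the 19, the median log2 fold change over sham was 1.38 with miR125sp and 3.23 with miR292sp, and for the 93 it was 0.11 and −0.24.

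Ttr, which encodes transthyretin and is made by the choroid plexus, was the highest against miR292sp, with 1208 and 1046 counts, against 100 and 72 with the control sponge and an uneven 718 and 167 in sham (4.25 ± 0.48, adjusted p = 2.81e-04). It was also the single 3′UTR that differed between miR125sp and miR124sp (0.0122% of those tested, 3.32 ± 0.46, adjusted p = 0.00956, with 146 and 70 counts with miR124sp). None was lower in that comparison by edgeR with TMM, and 215 were higher and 215 lower at an unadjusted p below 0.05. Of the 5 choroid plexus markers measured, Ttr was the only one higher than sham (1.73 ± 0.41, adjusted p = 0.00325), a call that was lost with TMM (1.10, adjusted p = 0.0797). The summed normalised count of the list was 2014 and 1466 with miR125sp, 1003 and 423 in sham, 730 and 477 with miR292sp and 498 and 390 with miR124sp. Most of the sum with miR125sp was Ttr itself. How much of the choroid plexus was dissected with each hippocampus was not tested.

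**Figure D5:**
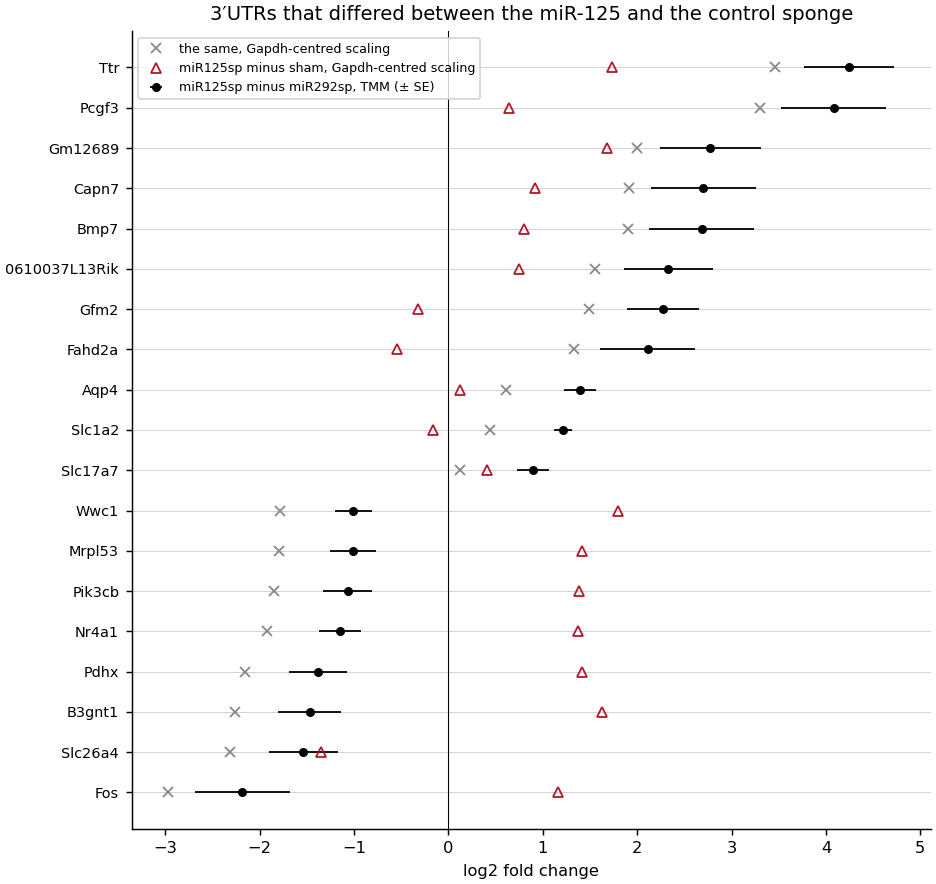
log2 fold change between miR125sp and miR292sp with TMM scaling (black, bars are SE) and with the Gapdh-centred scaling (crosses), and between miR125sp and sham (triangles), for the 8 lowest and 11 of the 97 higher 3′UTRs. Each keeps its side of 0 with both scalings, and of the 8 lowest all but Slc26a4 lie above 0 against sham.

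Slc1a2 was higher with miR125sp than with miR292sp by 1.22 ± 0.09 (adjusted p = 2.16e-06), with 71322 and 74312 counts in the miR292sp libraries, and Aqp4 by 1.39 ± 0.17 (adjusted p = 3.44e-04). Of 16 astrocyte markers 4 and of 17 oligodendrocyte markers 3 were higher, and none was lower. Of 23 neuron markers 1 was higher, Slc17a7 (0.90 ± 0.17). With the Gapdh-centred scaling Slc1a2, Aqp4 and Slc17a7 were at 0.44, 0.61 and 0.12. With miR124sp, Slc1a2 had 151978 and 121658 counts and Aqp4 had 5319 and 3675, also above both miR292sp values. The high values of Slc1a2 and Aqp4 were not particular to miR125sp. The other high ones, Pcgf3 (90 and 295 counts against 11 and 21), Gm12689, Capn7, Bmp7 (54 and 72 against 13 and 15), 0610037L13Rik, Gfm2 and Fahd2a, were at 2.11 to 4.08 and rested on few counts in the miR292sp libraries. The share of counts from astrocyte markers, given above, is mostly that of Slc1a2 and so largely restates its call. The part of that share in the other calls was not tested.

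Some called 3′UTRs differed between the miR125sp libraries. Of those called higher or lower than sham, 76 differed by more than 2-fold between IP1 and IP2. The least even were D230025D16Rik (81 and 24 counts against 13 and 17 in sham), Tmem164 (177 and 57 against 25 and 54), D630023F18Rik (21 and 83 against 16 and 19) and Etl4 (78 and 26 against 17 and 22). They were at 2.10 ± 0.61, 1.83 ± 0.58, 1.79 ± 0.66 and 1.71 ± 0.62, and each lost its call under 4 to 10 of the 11 alternatives.

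Total polyadenylated RNA was measured in other mice, 3 with a GFP vector that carries the miR-125 sponge without AGO2 and 3 with GFP alone, and is independent of the RIP. Of 12638 genes tested, 7 were higher (0.0554%) and 19 lower (0.15%) with the sponge (edgeR, adjusted p below 0.05). Leaving out GFP replicate 15 gave 59 and 49, and leaving out any other mouse gave 0 higher and at most 1 lower. At an unadjusted p below 0.05, 808 and 851 genes were higher and lower. For the 443 genes above 4-fold in the RIP with a matched symbol the median log2 fold change of the mRNA was −0.03 (quartiles −0.09 and 0.05), against 0.00 for all 6509 (quartiles −0.07 and 0.07). For the 1077 genes with 1 or more miR-125 matches it was −0.0049, and for the 17 genes lower than with miR292sp it was 0.03. The quartiles of each group lay on both sides of 0.

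Of the genes named above, Snap25 had more mRNA (0.27, adjusted p = 0.0422), and Aqp4 had less (−0.35, adjusted p = 0.0468). Itgb1, Mcl1, Foxo3, Btg2 and Hif1an were at −0.09, −0.04, 0.11, 0.01 and −0.08, and none passed.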

How the data were processed

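RNA bound to GFP-AGO2 was precipitated from adult mouse hippocampus, amplified (NuGEN Ovation, with polyA enrichment) and sequenced as 50 base single reads, and total polyadenylated RNA was sequenced from other mice. The deposited values were raw counts of reads per annotated 3′UTR (RIP) and per transcript (mRNA), made by the authors with STAR. The paper gives mm9 and the labels name mm10 for the alignment, with the counter not given in the sources used here. All numbers of the report were computed from these counts. 3′UTRs were named and located in GENCODE M1 (NCBIM37), and the row length equalled the annotated 3′UTR without the stop codon for 82.7% of rows. mRNA counts were summed per symbol, and CPM were computed from these sums.

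All 8 RIP libraries were fitted together with edgeR 4.0.16 (quasi-likelihood, R 4.3.3) without covariates. Reported are log2 fold changes with SE, the coefficient divided by the square root of F, and Benjamini-Hochberg adjusted p over all 8203 3′UTRs (at least 10 counts in each RIP library). Comparisons with sham were scaled to the Gapdh-centred genes after the authors' method, those between sponges by TMM. Against sham, counts of calls in total and in the gene lists are given with both scalings. Those by seed match and by length are given with the Gapdh-centred scaling only. Single values are given with the other scaling for some genes. Tested on simulated counts for miR125sp against sham over 8203 3′UTRs, the fit recovered 32% of 2-fold and 89% of 4-fold changes, with 6 false calls. In that simulation only a small part of the 3′UTRs was changed and libraries were scaled by total counts, unlike in the data. The recovery and the false calls need not hold for the comparison itself. Alternatives were other scalings, filters and sample sets, DESeq2 1.42.0, and each library left out. In gene lists, each gene entered with its most deeply covered 3′UTR. The named genes were the 12 highest and lowest, up to 4 called members a list, all literature targets of miR-125, the 8 largest either way against miR292sp, those with most miR-125 matches, markers, and the least even. Some genes that this rule names are not reported here. The members, lists and tests were chosen with earlier results of these data known. In total 6 mRNA files, those of the miR-124 sponge and of the GFP controls of that experiment, were not used. Depth was 2417942 to 5072501 counts per library, and the intervals given are standard errors over libraries.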

Additional observations from a re-analysis of the deposited data

How the results depend on the processing

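With TMM, 1037 3′UTRs were higher and 314 lower, and 191 exceeded 4-fold, and with DESeq2 size factors these counts were 994, 345 and 185. With reference genes taken from the miR125sp list, which shared 3 genes with the list used, 1954 were higher and 48 lower. The median was then 0.39, and 394 exceeded 4-fold. Without a filter on low counts, 61 were lower and 1545 exceeded 4-fold, of 19361 tested. Leaving out 1 library gave 10 to 32 lower (10 without miR125sp IP1, 14 without IP2, 32 without sham IP8) and 493 to 786 above 4-fold (786 without sham IP8). Against miR292sp, the Gapdh-centred scaling gave 18 higher and 3132 lower, DESeq2 218 and 157, the 4 libraries alone 273 and 241, and no filter 158 lower. Leaving out 1 library there gave 5 to 20 higher and 0 to 1 lower. In the mRNA, DESeq2 gave 71 higher and 71 lower and no filter 90 and 119, while leaving out 1 mouse gave 0 to 59 higher and 0 to 49 lower. Of 124 named calls against sham, 78 kept their direction and their side of the threshold under 7 alternatives, 33 were lost with TMM and 21, 19, 19 and 12 without IP1, IP2, IP7 and IP8. Slc17a7 changed sign with TMM (−0.18). No paired analysis was possible because the groups compared share fewer than 2 replicate numbers. Other than the scaling, the filter and the number of libraries, which act by construction, the cause was not tested. With 2 libraries a group, the depth and the spread limit what can be called.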

Other observations

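Outside the 3′UTRs described above, 557 had at least 10 counts in all 6 sponge libraries and fewer than 10 in a sham library, 5 of them with 0 in both. They were left out by the limit of 10 although several were well covered with the sponge. Fam78a had 486 and 435 counts with miR125sp and 17 and 8 in sham, 46.6-fold by the normalised means. Vat1, which encodes a vesicle membrane protein, had 196 and 267 against 6 and 5 (50.9-fold), and Gfpt2, the rate-limiting enzyme of the hexosamine pathway, had 175 and 198 against 2 and 15 (24.2-fold). Pard6b, a polarity protein, had 131 and 171 against 4 and 12 (21.4-fold). These ratios rest on few sham counts and have no test.

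Just inside the limit were Rsu1 (162 and 171 counts with miR125sp, 10 and 32 in sham) and Spryd4 (119 and 156, 118 and 10). Just outside were Thumpd1 (122 and 82, 99 and 9) and Crtc3 (144 and 153, 73 and 9).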
